A study of Mus musculus with 33 samples.

Results

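The 37 genes described here encode lysosomal hydrolases and lysosomal membrane proteins. They were listed by name, with earlier results of these data known. They comprise 5 membrane proteins, 11 cathepsins and other proteases, 12 glycosidases and glycosaminoglycan enzymes, 5 lipid hydrolases and lipid transfer proteins, and 4 subunits of the proton pump. All 37 were present among the 25988 genes of the count table, and 36 had enough reads to be tested together with the rest of the 10179 genes tested. The exception was Idua, the iduronidase of glycosaminoglycan breakdown, with 2 to 15 reads per library. Lysosomes are acidic organelles in which proteins, glycans, glycosaminoglycans and lipids are broken down by hydrolases that work at low pH. A proton pump in the limiting membrane keeps the lumen acidic, and heavily glycosylated membrane proteins line the inner face of that membrane. In liver, glycogen is degraded mainly in the cytosol, but a part of it reaches lysosomes by autophagy, and Kupffer cells, the resident macrophages, are rich in lysosomes as well.

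RNA was measured by 3' sequencing of 33 mouse liver libraries. shChREBP/L-G6pc-/- livers (9 libraries) came from mice with an induced deletion of G6pc, the gene of the catalytic subunit of glucose-6-phosphatase, in hepatocytes, which received an AAV2/8 vector with a short hairpin RNA against ChREBP, a glucose-sensing transcription factor encoded by Mlxipl. shSCR/L-G6pc-/- livers (8 libraries) had the same deletion and a scrambled hairpin. shChREBP/L-G6pc+/+ livers (8 libraries) and shSCR/L-G6pc+/+ livers (8 libraries) came from Cre-negative littermates that carried the floxed G6pc alleles but did not delete them. All mice were male C57BL/6J and received an AAV, at 13 to 18 weeks of age by the study's methods, and then tamoxifen. Livers were collected 10 days after the last tamoxifen dose. The tamoxifen-inducible Cre is driven by the albumin gene, so the deletion is a hepatocyte deletion, whereas RNA came from whole liver. Separate mice are not named for the libraries, so n counts libraries, and p-values measure the spread between them, which may in part be technical.

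Libraries held 1497843 to 3546852 counted reads, and no pair of libraries within a group was identical. G6pc had 117 to 470.5 CPM (median 218) in shChREBP/L-G6pc-/- livers, 158 to 752 CPM (median 276) in shSCR/L-G6pc-/- livers, 69.1 to 201 CPM (median 162) in shChREBP/L-G6pc+/+ livers and 78.7 to 364 CPM (median 236) in shSCR/L-G6pc+/+ livers, where CPM are read counts scaled to a common library size with TMM factors. It was not lower with the deletion (log2 fold change 0.56, edgeR adjusted p = 0.368). The sources used here do not say which bases of G6pc are removed, and reads come from the 3' end of transcripts, so these counts cannot check the genotype labels where that end lies outside the deleted bases. Mlxipl fell with shChREBP in L-G6pc-/- livers (log2 fold change -0.57, edgeR adjusted p = 0.00417) and in L-G6pc+/+ livers (-0.55, edgeR adjusted p = 0.0129). Pklr, the liver pyruvate kinase gene and a known target of ChREBP, changed by -0.58 (edgeR adjusted p = 0.0169) and -0.83 (edgeR adjusted p = 0.00347) in the same order. It was 1.35 higher with G6pc deficiency (edgeR adjusted p = 8.68e-07). In shChREBP/L-G6pc-/- livers Pklr was still 0.77 above shSCR/L-G6pc+/+ livers (edgeR adjusted p = 0.00105). All 14 hepatocyte markers were above the filter on low counts, with Alb at a median of 5627 CPM in shChREBP/L-G6pc-/- livers and 14507 CPM in shSCR/L-G6pc+/+ livers. In whole tissue, fewer cells of a type and less RNA per cell cannot be told apart. In the shChREBP/L-G6pc-/- group, 4 libraries (s29, s30, s32 and s33) stood apart from the other 5 of their group on the first principal component over all genes (26.8 to 35.6 vs -1.47 to 7.70). Calls that rest on this group, and its estimates for the lysosomal genes named, are therefore given with and without them.

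12 of the 36 lysosomal genes tested passed the test (adjusted p under 0.05, two-sided, adjusted over all 10179 genes) in at least 1 comparison, nearly always as modest rises. The share of all genes that passed in at least 1 comparison was not computed, so this pooled count has no background. Shares of all genes are given for each comparison. In shChREBP/L-G6pc-/- vs shSCR/L-G6pc+/+ livers, 9 of 36 rose and 0 fell, while 6.87% of all genes tested rose and 6.37% fell. With shChREBP in L-G6pc-/- livers, 3 of 36 rose and 0 fell, against a background of 3.33% of all genes that rose and 4.23% that fell. With shChREBP in L-G6pc+/+ livers, 3 rose and 1 fell, while the background was 2.16% and 3.23%. G6pc deficiency with the scrambled hairpin raised 2 and lowered 0, while 2.2% of all genes rose and 1.03% fell. In each of these comparisons most lysosomal genes did not pass. The genes were chosen with earlier results known, so these counts are a description.

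The median log2 fold change of the 36 genes was 0.13 in shChREBP/L-G6pc-/- vs shSCR/L-G6pc+/+ livers, where the median over all genes was 0.01. It was 0.07 for shChREBP in L-G6pc-/- livers, 0.03 for shChREBP in L-G6pc+/+ livers and 0.07 for G6pc deficiency, where all genes had medians of 0.01, 0.03 and 0.00. Without s29, s30, s32 and s33 the first of these medians was 0.07 and that for shChREBP in L-G6pc-/- livers was 0.01, close to the median of all genes. The difference between genotypes in the shChREBP effect was called for 0 of 36 genes by edgeR, with 6 at an unadjusted p under 0.05, and for 1 by DESeq2, Lamp2. Without the 4 libraries edgeR called 0 of 36 as well, with 4 at an unadjusted p under 0.05. Over all genes this difference was called by edgeR as higher for 0.0589% and lower for 0.0196%, and by DESeq2 for 73 of 10179. It had an unadjusted p under 0.05 for 1226 of 10179 genes. That number was 2587 for shChREBP/L-G6pc-/- vs shSCR/L-G6pc+/+, 2267 for shChREBP in L-G6pc-/-, 2193 for shChREBP in L-G6pc+/+ and 1486 for G6pc deficiency. These are the background for unadjusted counts given below. Without the 4 libraries no such background was computed. The comparisons share the shSCR/L-G6pc+/+ or shSCR/L-G6pc-/- libraries, so their values are given side by side and are not independent.

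**Figure D1:**
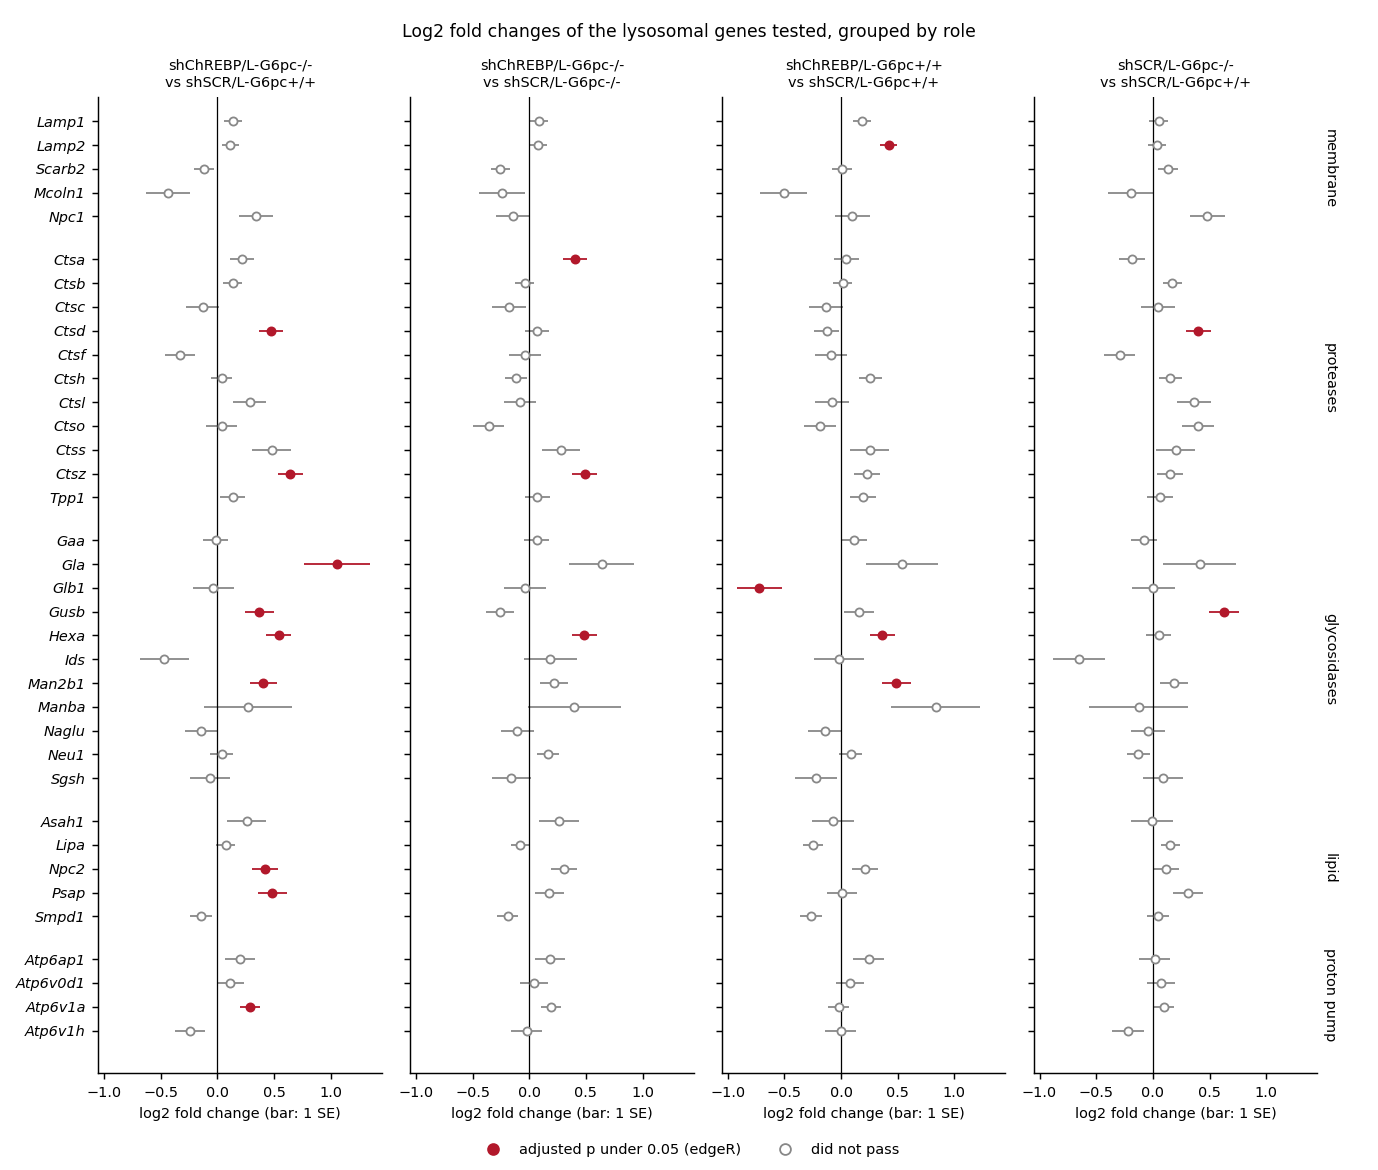
Log2 fold change (x axis) of the 36 lysosomal genes tested (y axis, grouped by role) in 4 comparisons. Points are edgeR estimates with bars of 1 standard error, and filled red points passed at an adjusted p under 0.05. Filled points number 9, 3, 4 and 2 from left to right, and Glb1 is the only filled point below 0.

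The plot of fold changes by role shows 18 calls on 12 genes. Most estimates of the other 24 genes lie close to 0, and the wide bars belong to genes with few reads, such as Manba and Gla.

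Some of the genes carry a motif near a start site that is already known from lysosomal genes, though most do not. Its share in a list of lysosomal genes is therefore a description. Lysosomal genes are known for the CLEAR element, whose core TCACGTGA is bound by TFEB, TFE3 and MITF, and which contains the E-box CACGTG. ChREBP with its partner MLX binds pairs of E-box-like motifs. In windows of 250 bases before to 50 bases after a start site listed by RefSeq (GRCm38.p6), 32 of the 37 genes matched by symbol. The core, which reads the same on both strands, was found in 6 of these 32 (18.8%) and in 304 of 27025 genes (1.12%). The E-box, counted also inside the core, was found in 13 of 32 (40.6%) and in 8.09% of all genes. The 6 genes with the core were Mcoln1, Ctsa, Ctsd, Gla, Atp6v0d1 and Atp6v1a. Among the matched genes the core was present in 4 of the 12 that passed a test and in 2 of the 20 others, and the E-box in 5 of the 12 and in 8 of the 20. Binding was not measured here, and a match is a match of letters.

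The 4 windows below belong to genes with the core that passed a test, and the capitals mark the core. They lie at chr7:142387778-142388077 (minus strand) for Ctsd, chr2:164833523-164833822 (plus strand) for Ctsa, chrX:134600956-134601255 (minus strand) for Gla and chr16:44139210-44139509 (minus strand) for Atp6v1a, in GRCm38.p6. Ctsa and Gla hold 2 cores each. The windows of Ctsa and Atp6v1a lie wholly inside the annotated genes (164832873 to 164841032 and 44085402 to 44139705). Their RefSeq start sites thus differ from the annotated gene starts.
Ctsd: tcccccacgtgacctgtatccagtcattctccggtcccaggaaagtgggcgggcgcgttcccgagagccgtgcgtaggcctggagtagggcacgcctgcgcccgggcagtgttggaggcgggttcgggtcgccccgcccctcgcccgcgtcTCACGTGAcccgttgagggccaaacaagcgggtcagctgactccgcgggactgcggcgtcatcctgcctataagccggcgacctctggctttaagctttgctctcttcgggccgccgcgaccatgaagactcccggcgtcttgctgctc
Ctsa: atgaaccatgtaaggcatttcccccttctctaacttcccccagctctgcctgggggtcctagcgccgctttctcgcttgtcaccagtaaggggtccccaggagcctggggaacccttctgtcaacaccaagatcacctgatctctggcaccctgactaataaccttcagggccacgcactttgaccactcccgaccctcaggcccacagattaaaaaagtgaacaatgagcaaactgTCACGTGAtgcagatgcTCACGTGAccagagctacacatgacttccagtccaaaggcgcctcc
Gla: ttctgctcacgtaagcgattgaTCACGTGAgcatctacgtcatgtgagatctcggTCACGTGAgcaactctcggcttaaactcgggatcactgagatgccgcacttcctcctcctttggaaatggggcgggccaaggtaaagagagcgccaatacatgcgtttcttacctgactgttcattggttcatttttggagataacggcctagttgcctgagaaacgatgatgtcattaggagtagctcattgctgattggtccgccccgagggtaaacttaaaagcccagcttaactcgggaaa
Atp6v1a: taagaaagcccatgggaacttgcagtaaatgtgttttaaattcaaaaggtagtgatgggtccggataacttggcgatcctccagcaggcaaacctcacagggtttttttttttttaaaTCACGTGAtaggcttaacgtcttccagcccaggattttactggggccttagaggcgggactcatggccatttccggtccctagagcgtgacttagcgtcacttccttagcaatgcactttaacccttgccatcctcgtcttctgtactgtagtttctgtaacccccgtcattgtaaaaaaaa

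Among the 5 membrane proteins, Lamp2 rose with shChREBP in L-G6pc+/+ livers, and no other passed a test in any comparison. LAMP2 is an abundant glycoprotein of the lysosomal membrane that takes part in autophagosome fusion and chaperone-mediated autophagy. Lamp2 (chromosome X of GRCm38, 38401357 to 38456454, minus strand) ranged from 762 to 926 CPM (median 855) in shChREBP/L-G6pc+/+ livers and from 591 to 695 CPM (median 657) in shSCR/L-G6pc+/+ livers. All 8 shChREBP libraries lay above all 8 shSCR libraries. Groups did not overlap in this comparison for 1 of the 36 genes tested, Lamp2, against 0.865% of all genes. This was a log2 fold change of 0.42 (SE 0.078, edgeR adjusted p = 0.00157). In the other comparisons 0 of 36 had groups that did not overlap, against 1.67% of all genes in shChREBP/L-G6pc-/- vs shSCR/L-G6pc+/+ livers, 0.707% in shChREBP/L-G6pc-/- vs shSCR/L-G6pc-/- livers and 0.756% for G6pc deficiency. The Lamp2 call passed under each of the 8 alternative analyses and in each of the 33 fits that left out 1 library.

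In L-G6pc-/- livers Lamp2 did not pass. It ranged from 637 to 787 CPM (median 692) in shChREBP/L-G6pc-/- livers and from 574 to 835 CPM (median 644) in shSCR/L-G6pc-/- livers, and these groups overlapped. The estimate was 0.08 (log2, SE 0.0755, edgeR adjusted p = 0.600), and 0.04 (edgeR adjusted p = 0.933) without the 4 libraries. The difference between the shChREBP effects in L-G6pc-/- and L-G6pc+/+ livers was -0.34 (SE 0.11) and did not pass with edgeR (adjusted p = 0.189), nor did it without the 4 libraries (-0.38, edgeR adjusted p = 0.135).

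The other membrane proteins were Lamp1, the close relative of Lamp2, Scarb2, the receptor that carries glucocerebrosidase to lysosomes, Mcoln1, a lysosomal calcium channel, and Npc1, which exports cholesterol. Scarb2 had the largest estimate of this role with shChREBP in L-G6pc-/- livers. Its levels were 255 to 359 CPM (median 322) in shChREBP/L-G6pc-/- livers and 294 to 439.6 CPM (median 385) in shSCR/L-G6pc-/- livers, and the estimate of -0.25 (log2) did not pass (edgeR adjusted p = 0.0608), although DESeq2 called it (adjusted p = 0.0273). Scarb2 was at -0.18 without the 4 libraries (edgeR adjusted p = 0.508), where Mcoln1, at -0.33, had the largest estimate. Npc1 was estimated at 0.48 for G6pc deficiency (edgeR adjusted p = 0.0791). Mcoln1 was estimated at -0.44 in shChREBP/L-G6pc-/- vs shSCR/L-G6pc+/+ livers (edgeR adjusted p = 0.141), and at -0.52 (edgeR adjusted p = 0.256) without the 4 libraries, with 5 to 36 reads per library. Lamp1 stayed within 0.05 to 0.18 in all 4 pairwise comparisons.

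Of the 11 proteases, Ctsz, Ctsd and Ctsa passed at least 1 test, all as rises. Cathepsin Z is a carboxypeptidase of the papain family that is abundant in macrophages. Ctsz (chromosome 2, 174427493 to 174439039, minus strand) ranged from 203 to 364 CPM (median 258) in shChREBP/L-G6pc-/- livers, from 145 to 264 CPM (median 189) in shSCR/L-G6pc-/- livers, and from 136 to 225 CPM (median 176) in shSCR/L-G6pc+/+ livers. 8 of 9 shChREBP/L-G6pc-/- libraries exceeded the highest shSCR/L-G6pc+/+ library, and 4 exceeded the highest shSCR/L-G6pc-/- library. As a log2 fold change the difference was 0.64 (SE 0.11, edgeR adjusted p = 0.0001) against shSCR/L-G6pc+/+ and 0.49 (SE 0.11, edgeR adjusted p = 0.00417) against shSCR/L-G6pc-/- livers. Leaving out s29, s30, s32 and s33 gave 0.45 (edgeR adjusted p = 0.0224) and 0.30 (edgeR adjusted p = 0.243). With shChREBP in L-G6pc+/+ livers Ctsz stood at 180.4 to 243 CPM (median 202), and the estimate of 0.23 (log2) did not pass (edgeR adjusted p = 0.231).

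Cathepsin D, encoded by Ctsd (chromosome 7, 142375911 to 142388038, minus strand), is the main aspartic protease of lysosomes, and its RNA was higher in L-G6pc-/- livers with either hairpin. It ranged from 480.3 to 831 CPM (median 584) in shChREBP/L-G6pc-/- livers, from 433 to 703 CPM (median 605) in shSCR/L-G6pc-/- livers and from 395 to 484 CPM (median 449) in shSCR/L-G6pc+/+ livers. 7 of 8 shSCR/L-G6pc-/- libraries lay above every shSCR/L-G6pc+/+ library. The log2 fold change for G6pc deficiency was 0.40 (SE 0.11, edgeR adjusted p = 0.0271), and it did not pass without the shSCR/L-G6pc+/+ library s1 or without the shSCR/L-G6pc-/- library s19, s20 or s23 (highest edgeR adjusted p = 0.0589). In shChREBP/L-G6pc-/- vs shSCR/L-G6pc+/+ livers it was 0.47 (SE 0.11, edgeR adjusted p = 0.00197), and 0.25 (edgeR adjusted p = 0.210) without the 4 libraries that stood apart. shChREBP itself gave 0.07 in L-G6pc-/- livers and -0.13 in L-G6pc+/+ livers, and neither passed. The first of these turned to -0.15 (edgeR adjusted p = 0.631) without the 4 libraries.

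Cathepsin A, encoded by Ctsa (chromosome 2, 164832873 to 164841032, plus strand), protects beta-galactosidase and neuraminidase 1 in a lysosomal complex, and Ctsa rose with shChREBP in L-G6pc-/- livers. Its levels were 236 to 376 CPM (median 300.0) in shChREBP/L-G6pc-/- livers and 157 to 287 CPM (median 243) in shSCR/L-G6pc-/- livers, with 5 of 9 libraries above the highest shSCR library. edgeR put the log2 fold change at 0.40 (SE 0.11, edgeR adjusted p = 0.0162), and 0.30 (edgeR adjusted p = 0.292) without the 4 libraries. Its complex partners did not pass in this comparison, with Neu1 at 0.16 (edgeR adjusted p = 0.341) and Glb1 at -0.04 (edgeR adjusted p = 0.931), nor did they without the 4 libraries (0.15 and 0.06). In L-G6pc+/+ livers Ctsa stood at 247 to 311 CPM (median 280) with shChREBP and 219 to 369 CPM (median 260) with shSCR. G6pc deficiency gave -0.18 (edgeR adjusted p = 0.468), and shChREBP/L-G6pc-/- vs shSCR/L-G6pc+/+ livers did not pass for Ctsa. The annotation places Neurl2 and Pltp over Ctsa, Nelfcd over Ctsz and Gm49369 over Ctsd. The sources do not say if counting used strand, so part of these reads may belong to the neighbours.

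The remaining 8 proteases (Ctsb, Ctsc, Ctsf, Ctsh, Ctsl, Ctso, Ctss and Tpp1) did not pass in any comparison. Ctss, a protease of antigen-presenting cells, came closest in shChREBP/L-G6pc-/- vs shSCR/L-G6pc+/+ livers, with 150.5 to 244 CPM (median 204) against 118 to 178 CPM (median 145) and a log2 fold change of 0.48 (edgeR adjusted p = 0.0567). DESeq2 called this difference, and without the 4 libraries it was 0.36 (edgeR adjusted p = 0.405). For G6pc deficiency the 11 proteases ranged from -0.29 (Ctsf) to 0.40 (Ctsd), and 9 of 11 estimates were above 0. For shChREBP in L-G6pc-/- livers they ranged from -0.36 (Ctso) to 0.49 (Ctsz), with 5 above 0, and without the 4 libraries from -0.21 (Ctso) to 0.30 (Ctsz).

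Of the 11 glycosidases and glycosaminoglycan enzymes tested, 5 passed at least 1 test. Hexa was the gene called in the most comparisons. It encodes the alpha subunit of beta-hexosaminidase, which cleaves ganglioside GM2. Hexa (chromosome 9, 59539540 to 59565109, plus strand, overlapped by Tmem202) ranged from 87.4 to 161 CPM (median 112) in shChREBP/L-G6pc-/- livers and from 69.0 to 99.1 CPM (median 81.9) in shSCR/L-G6pc-/- livers. In L-G6pc+/+ livers it ranged from 89.8 to 117 CPM (median 102) with shChREBP and from 68.0 to 94.3 CPM (median 79.3) with shSCR. In each genotype 7 shChREBP libraries lay above all shSCR libraries.

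The log2 fold change of Hexa with shChREBP was 0.49 (SE 0.11, edgeR adjusted p = 0.00351) in L-G6pc-/- livers and 0.36 (SE 0.11, edgeR adjusted p = 0.0451) in L-G6pc+/+ livers. The difference between these effects was 0.12 (SE 0.15) and did not pass (edgeR adjusted p = 0.803), and it turned to -0.11 (edgeR adjusted p = 0.790) without the 4 libraries. shChREBP/L-G6pc-/- vs shSCR/L-G6pc+/+ livers gave 0.54 (edgeR adjusted p = 0.000577), and G6pc deficiency gave 0.05 (edgeR adjusted p = 0.888). All 4 libraries that stood apart (120.5 to 161 CPM) had more Hexa than the other 5 of their group (87.4 to 112 CPM). Without them the effect in L-G6pc-/- livers was 0.25 (edgeR adjusted p = 0.293), and that against shSCR/L-G6pc+/+ livers was 0.30 (edgeR adjusted p = 0.105). The call in L-G6pc+/+ livers did not pass in 12 of the 33 fits that left out 1 library (highest edgeR adjusted p = 0.0901).

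Gusb, which encodes beta-glucuronidase of glycosaminoglycan breakdown, rose with G6pc deficiency. Gusb (chromosome 5, 129989011 to 130003049, minus strand) ranged from 32.9 to 50.6 CPM (median 38.8) in shSCR/L-G6pc-/- livers and from 19.5 to 33.1 CPM (median 25.1) in shSCR/L-G6pc+/+ livers, with 7 of 8 libraries above the highest control. The estimated log2 fold change was 0.63 (SE 0.13, edgeR adjusted p = 0.00276) and passed under every alternative analysis and every left-out library. Gusb was at 20.95 to 40.1 CPM (median 34.4) in shChREBP/L-G6pc-/- livers, where the change with shChREBP of -0.26 did not pass (edgeR adjusted p = 0.217), nor did it without the 4 libraries (-0.22, edgeR adjusted p = 0.587). Against shSCR/L-G6pc+/+ livers this group was 0.37 higher (edgeR adjusted p = 0.0490), a call that did not pass in 24 of the 33 fits without 1 library and passed under 2 of the 8 alternatives. Without the 4 libraries that difference was 0.40 (edgeR adjusted p = 0.116).

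Man2b1, the lysosomal alpha-mannosidase of glycoprotein breakdown, rose with shChREBP in L-G6pc+/+ livers. Man2b1 (chromosome 8, 85083270 to 85098282, plus strand) ranged from 29.7 to 46.9 CPM (median 40.1) in shChREBP/L-G6pc+/+ livers and from 20.6 to 33.2 CPM (median 29.4) in shSCR/L-G6pc+/+ livers, a log2 fold change of 0.49 (SE 0.13, edgeR adjusted p = 0.0184). It stood at 31.7 to 49.2 CPM (median 34.7) in shChREBP/L-G6pc-/- livers, 0.41 above shSCR/L-G6pc+/+ livers (edgeR adjusted p = 0.0212), and 0.28 above (edgeR adjusted p = 0.323) without the 4 libraries. The values in shSCR/L-G6pc-/- livers were 20.5 to 40.6 CPM (median 32.3), and the shChREBP effect in L-G6pc-/- livers was 0.22 (edgeR adjusted p = 0.292), and 0.09 (edgeR adjusted p = 0.873) without the 4 libraries. The call in L-G6pc+/+ livers did not pass without the shChREBP/L-G6pc+/+ libraries s9 and s13 or without the filter on low counts (highest edgeR adjusted p = 0.0557).

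Glb1 was the only gene of the set described here that was called lower in any comparison. It encodes beta-galactosidase, the enzyme whose activity is stained as a senescence marker. Glb1 (chromosome 9, 114401076 to 114474898, plus strand, overlapped by Tmppe) had few reads, 8 to 48 per library. It ranged from 4.33 to 10.3 CPM (median 6.79) in shChREBP/L-G6pc+/+ livers and from 7.29 to 15.5 CPM (median 11.9) in shSCR/L-G6pc+/+ livers, with 4 of 8 libraries below the lowest control. The log2 fold change was -0.72 (SE 0.20, edgeR adjusted p = 0.0295), and 7 of 33 fits without 1 library did not pass (highest edgeR adjusted p = 0.0711). In L-G6pc-/- livers it was at 7.27 to 15.1 CPM (median 10.4) with shChREBP and 5.57 to 14.8 CPM (median 11.7) with shSCR, a change of -0.04 (edgeR adjusted p = 0.931) that turned to 0.06 (edgeR adjusted p = 0.960) without the 4 libraries. The difference between genotypes, 0.68 (SE 0.27), did not pass (edgeR adjusted p = 0.296), nor did it without them (0.78, edgeR adjusted p = 0.214).

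Gla, which encodes the alpha-galactosidase A that removes terminal galactose from globotriaosylceramide, had the largest fold change among the calls, on 2 to 42 reads per library. Gla (chromosome X, 134588149 to 134601125, minus strand) ranged from 6.25 to 16.4 CPM (median 7.70) in shChREBP/L-G6pc-/- livers and from 1.06 to 6.94 CPM (median 4.33) in shSCR/L-G6pc+/+ livers. This was a log2 fold change of 1.05 (SE 0.29, edgeR adjusted p = 0.0122), and 0.65 (edgeR adjusted p = 0.336) without the 4 libraries. Its values were 2.66 to 10.02 CPM (median 5.71) in shSCR/L-G6pc-/- livers, and it had the largest shChREBP estimate of its role in L-G6pc-/- livers, 0.64, which did not pass (edgeR adjusted p = 0.176). This was 0.24 (edgeR adjusted p = 0.857) without the 4 libraries, below Ids at 0.45.

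The other 6 enzymes of this role that were tested (Gaa, Ids, Manba, Naglu, Neu1 and Sgsh) did not pass in any comparison. Gaa, the acid alpha-glucosidase that degrades glycogen inside lysosomes, ranged from 25.6 to 44.2 CPM (median 32.4) in shChREBP/L-G6pc-/- livers, from 25.3 to 40.6 CPM (median 32.2) in shSCR/L-G6pc-/- livers and from 30.1 to 40.9 CPM (median 33.4) in shSCR/L-G6pc+/+ livers. The estimate was -0.08 (SE 0.12) for G6pc deficiency and -0.01 (SE 0.11) for shChREBP/L-G6pc-/- vs shSCR/L-G6pc+/+ livers, which became 0.02 (SE 0.12) without the 4 libraries. Ids, an iduronate sulfatase, had the lowest estimate for G6pc deficiency, -0.65 (edgeR adjusted p = 0.126). Manba, a beta-mannosidase, had the highest estimate with shChREBP in L-G6pc+/+ livers, 0.83 (SE 0.39, edgeR adjusted p = 0.203), on 2 to 33 reads per library. Idua, which was not tested, ranged from 1.47 to 5.18 CPM (median 4.41) in shChREBP/L-G6pc-/- livers and from 1.93 to 5.48 CPM (median 3.26) in shSCR/L-G6pc+/+ livers, and these groups overlapped.

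**Figure D2:**
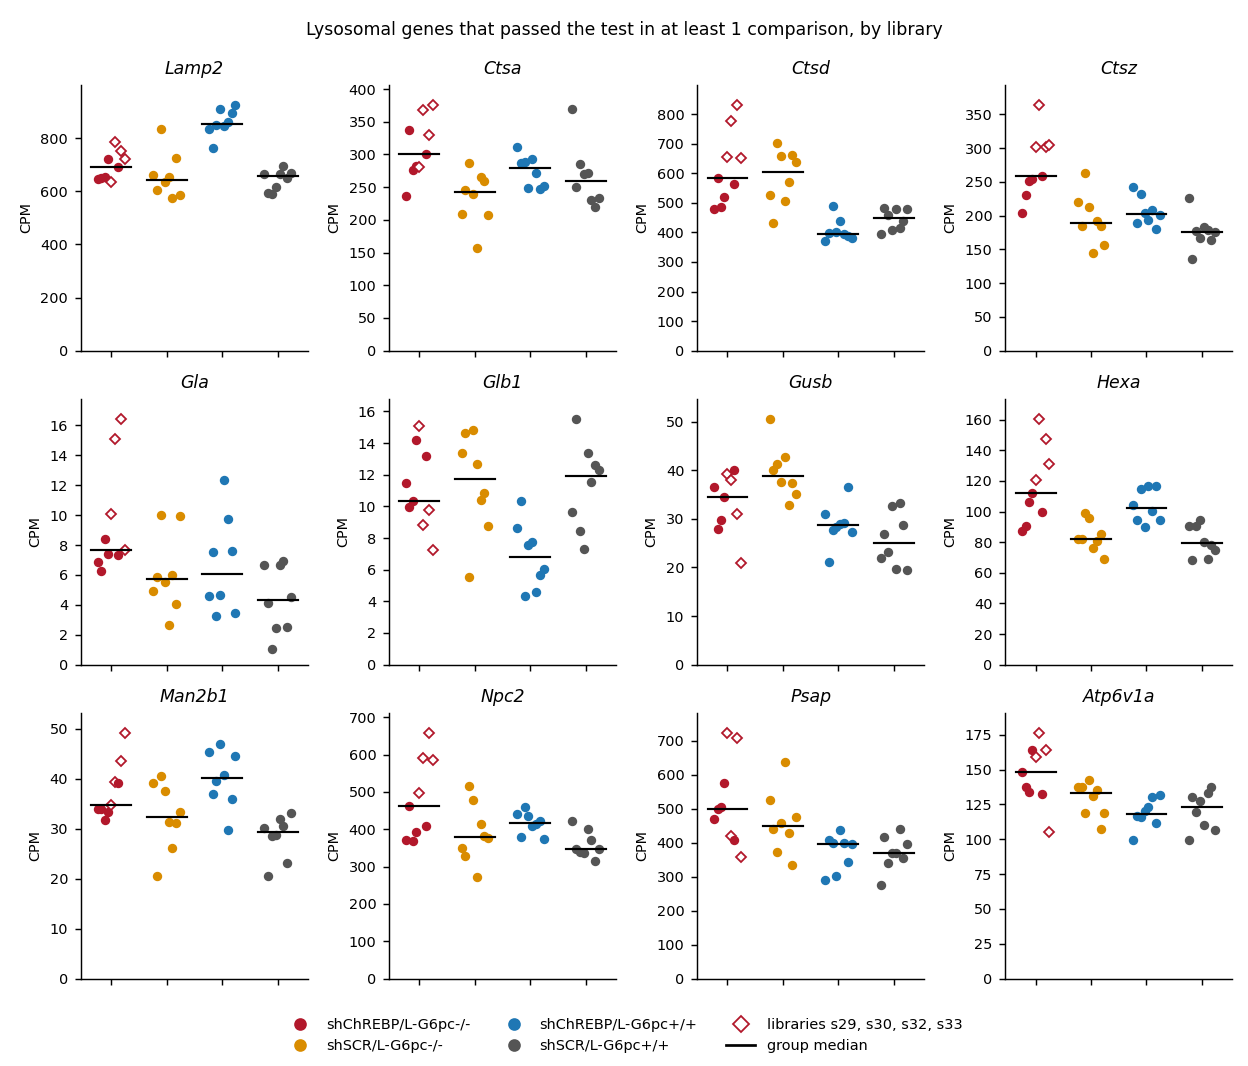
Levels in CPM (y axis, from 0) of the 12 genes that passed at least 1 test, with 1 point per library and black lines at group medians. Groups run from shChREBP/L-G6pc-/- on the left through shSCR/L-G6pc-/- and shChREBP/L-G6pc+/+ to shSCR/L-G6pc+/+ on the right, and open diamonds mark s29, s30, s32 and s33. Lamp2 in shChREBP/L-G6pc+/+ livers (762 to 926 CPM) clears the shSCR/L-G6pc+/+ livers (591 to 695 CPM), and the diamonds lie above the other shChREBP/L-G6pc-/- points for Ctsz, Hexa, Ctsd and Npc2.

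The plot of levels by library shows every library behind the calls. For Psap and Atp6v1a the diamonds hold both the highest and the lowest value of their group.

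Of the 5 lipid genes, Psap and Npc2 passed, in 1 comparison each. Psap encodes prosaposin, the precursor of the saposins that present sphingolipids to their hydrolases. Psap (chromosome 10, 60277627 to 60302597, plus strand) ranged from 358 to 724 CPM (median 499.9) in shChREBP/L-G6pc-/- livers and from 277 to 441 CPM (median 370.3) in shSCR/L-G6pc+/+ livers. As a log2 fold change the difference was 0.48 (SE 0.13, edgeR adjusted p = 0.00956), and 0.41 (edgeR adjusted p = 0.0773) without the 4 libraries. In shSCR/L-G6pc-/- livers Psap lay at 335 to 637 CPM (median 449.9), with a change of 0.31 for G6pc deficiency that did not pass (edgeR adjusted p = 0.251).

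Npc2 encodes the soluble protein that hands cholesterol to NPC1. Npc2 (chromosome 12, 84754562 to 84773152, minus strand) ranged from 368 to 658 CPM (median 461) in shChREBP/L-G6pc-/- livers and from 316 to 421 CPM (median 346) in shSCR/L-G6pc+/+ livers, a log2 fold change of 0.42 (SE 0.12, edgeR adjusted p = 0.0112). This change shrank to 0.16 (edgeR adjusted p = 0.521) without the 4 libraries, whose levels of 498 to 658 CPM all exceeded those of the other 5 (368 to 461 CPM). Against shSCR/L-G6pc-/- livers (273 to 516 CPM, median 379) Npc2 had the largest estimate of its role, 0.31, which did not pass (edgeR adjusted p = 0.0940) and was 0.05 (edgeR adjusted p = 0.930) without the 4 libraries. The other 3, Lipa (acid lipase), Smpd1 (acid sphingomyelinase) and Asah1 (acid ceramidase), did not pass in edgeR. Lipa was estimated at -0.25 with shChREBP in L-G6pc+/+ livers (edgeR adjusted p = 0.0754), where DESeq2 called it.

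Of the 4 proton pump subunits, Atp6v1a, the catalytic A subunit of the cytosolic V1 domain, passed in 1 comparison. Atp6v1a (chromosome 16, 44085402 to 44139705, minus strand) ranged from 105 to 176 CPM (median 148) in shChREBP/L-G6pc-/- livers and from 99.3 to 137 CPM (median 123) in shSCR/L-G6pc+/+ livers. edgeR put the log2 fold change at 0.29 (SE 0.090, edgeR adjusted p = 0.0288), and 8 of the 33 fits that left out 1 library did not pass (highest edgeR adjusted p = 0.0799). Without the 4 libraries it was 0.26 (edgeR adjusted p = 0.152). Against shSCR/L-G6pc-/- livers (107 to 142 CPM, median 133) it was 0.19 (edgeR adjusted p = 0.202), and 0.16 (edgeR adjusted p = 0.556) without them, the largest estimate of this role with shChREBP in L-G6pc-/- livers. Atp6ap1, Atp6v0d1 and Atp6v1h did not pass in any comparison and ranged from -0.24 to 0.25.

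Most calls in shChREBP/L-G6pc-/- livers did not pass without the 4 libraries that stood apart. With only the other 5 libraries left in that group the test has less power, so a lost call alone does not show a changed estimate. With all libraries, 1347 genes in all were called vs shSCR/L-G6pc+/+ livers and 770 vs shSCR/L-G6pc-/- livers. For 4 of the 36 genes tested (11.1%), Ctsz, Hexa, Ctsd and Npc2, all 4 of these libraries exceeded all of the other 5, and for 0 of 36 they were all lower. Over all genes tested these shares were 4.57% and 3.44%. These libraries were identified from all genes, these included, so the order is a description. The summed level of the 37 genes was 7274 to 8437 CPM in the 4 libraries and 6351 to 7140 CPM in the other 5. Without the 4, shChREBP/L-G6pc-/- vs shSCR/L-G6pc+/+ called 1 of 36 genes, Ctsz, with 8 at an unadjusted p under 0.05, and 321 of 10399 genes in all, while shChREBP/L-G6pc-/- vs shSCR/L-G6pc-/- called 0 of 36 by edgeR, with 3 at an unadjusted p under 0.05, and 106 in all. The calls for G6pc deficiency and for shChREBP in L-G6pc+/+ livers involve none of these libraries, and the same 2 and 4 genes passed in that fit.

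**Figure D3:**
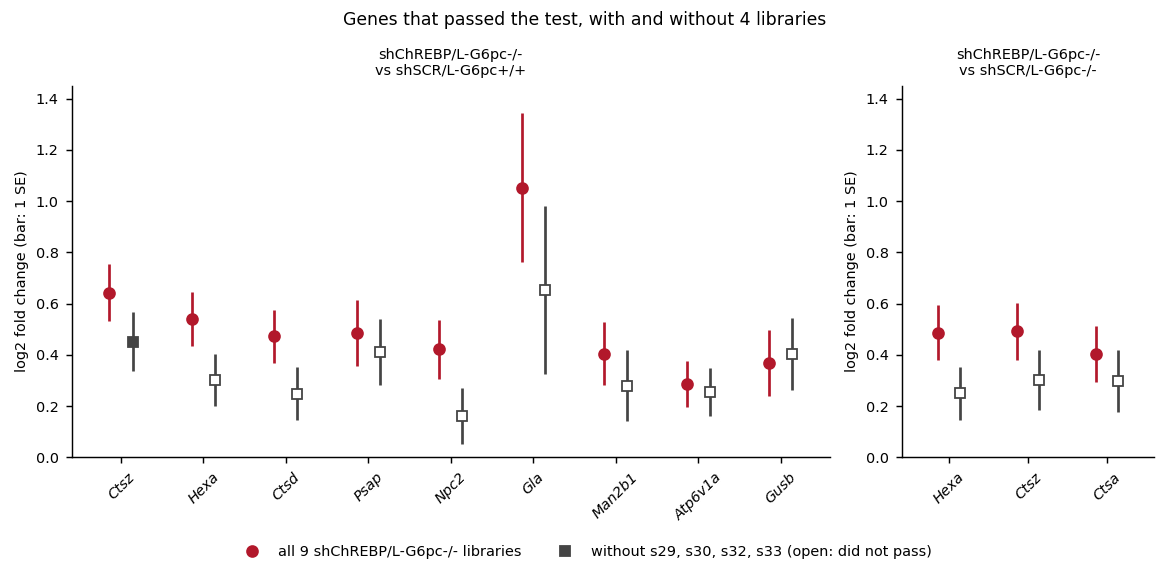
Log2 fold change (y axis, bars of 1 standard error) of the genes that passed in shChREBP/L-G6pc-/- vs shSCR/L-G6pc+/+ livers (left, 9 genes) and vs shSCR/L-G6pc-/- livers (right, 3 genes). Red circles use all 9 shChREBP/L-G6pc-/- libraries and squares leave out s29, s30, s32 and s33, with filled squares for an adjusted p under 0.05. Ctsz on the left is the only filled square (0.45), and all 12 estimates stay above 0.

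The plot of calls without 4 libraries shows that every estimate kept its direction. Npc2 lost the most in proportion (0.42 with and 0.16 without the 4), whereas Gusb did not shrink (0.37 and 0.40).

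Markers of other cell types moved in the same group. The summed level of 16 macrophage and Kupffer cell markers ranged from 1832 to 2737 CPM (median 2324) in shChREBP/L-G6pc-/- livers, from 1180.3 to 2636 CPM (median 2065) in shSCR/L-G6pc-/- livers, from 1249.8 to 3196 CPM (median 1672) in shChREBP/L-G6pc+/+ livers and from 1272 to 2122 CPM (median 1567) in shSCR/L-G6pc+/+ livers. Of 15 markers tested, 6 rose and 0 fell in shChREBP/L-G6pc-/- vs shSCR/L-G6pc+/+ livers, led by Msr1 (0.71, edgeR adjusted p = 0.00414). Against shSCR/L-G6pc-/- livers 4 rose and 0 fell, led by C1qa (0.58, edgeR adjusted p = 0.00645). Estimates above 0 numbered 14 and 13 of 15 in these comparisons, and Marco was lowest in the second (-0.35). Without the 4 libraries 0 of 15 passed with edgeR in either comparison, with 6 and 4 at an unadjusted p under 0.05. With shChREBP in L-G6pc+/+ livers, where Lamp2, Man2b1 and Hexa rose, 0 of 15 were called by edgeR, but all 15 estimates were above 0. There 6 of 15 had an unadjusted p under 0.05, against 2193 of 10179 genes in all. In the fit without the 4 libraries 2 of 15 were called higher. For G6pc deficiency 0 of 15 were called by edgeR and 3 had an unadjusted p under 0.05, against 1486 of 10179 genes in all. Adgre1, Clec4f, C1qa and Vsig4, which define macrophages or Kupffer cells, had reads in every library. The part of these cells in the rises of Ctsz, Hexa, Lamp2 and the other lysosomal genes was not tested.

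The summed level of 14 hepatocyte markers ranged from 42025 to 65536 CPM (median 49661) in shChREBP/L-G6pc-/- livers and from 58289 to 76616 CPM (median 64052) in shSCR/L-G6pc+/+ livers, and 5 of 14 fell and 0 rose between these groups. Without the 4 libraries 1 of 14 fell, Alb (-1.11, against -1.31 with them). Alb and Ttr fell with shChREBP in L-G6pc-/- livers (2 of 14, and 0 by edgeR without the 4 libraries, with 2 at an unadjusted p under 0.05), and Alb alone fell with G6pc deficiency (-0.79, edgeR adjusted p = 3.68e-05). Stellate cell markers summed to 655 to 1015 CPM in shChREBP/L-G6pc-/- livers and 617 to 806 CPM in shSCR/L-G6pc+/+ livers, with 1 of 12 called higher, Bgn (0.34, edgeR adjusted p = 0.0390), which was at 0.23 (edgeR adjusted p = 0.405) without the 4 libraries. Bgn was also the 1 of 12 called higher vs shSCR/L-G6pc-/- livers (0.46, and 0.35 with edgeR adjusted p = 0.204 without them). Sinusoidal endothelial markers summed to 436 to 543 CPM and 423 to 541 CPM in these groups, with 0 of 11 called by edgeR and 1 at an unadjusted p under 0.05. With shChREBP in L-G6pc+/+ livers 1 of 11 endothelial markers was called higher, Fcgr2b (0.59, edgeR adjusted p = 0.0193), and 10 of 11 estimates were above 0.

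Cholangiocyte markers summed to 37.5 to 70.3 CPM for 8 genes in shChREBP/L-G6pc-/- livers and 19.5 to 56.2 CPM in shSCR/L-G6pc+/+ livers, and 2 of the 8 had enough reads to be tested. Of these, Spp1 was called higher between these groups (0.96, edgeR adjusted p = 0.0132), with 0.86 (edgeR adjusted p = 0.117) without the 4 libraries, and Sox9 was at 0.08 (edgeR adjusted p = 0.884). Of 11 lymphocyte and neutrophil markers, which summed to 43.9 to 144 CPM in shChREBP/L-G6pc-/- livers, 44.0 to 241 CPM in shChREBP/L-G6pc+/+ livers and 47.0 to 118 CPM in shSCR/L-G6pc+/+ livers, only S100a8 and S100a9 had enough reads to be tested. edgeR called neither in any comparison, and with shChREBP in L-G6pc+/+ livers both had an unadjusted p under 0.05 (S100a8 0.69, S100a9 0.72). The part of these cell types in the lysosomal values was not tested either.

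**Figure D4:**
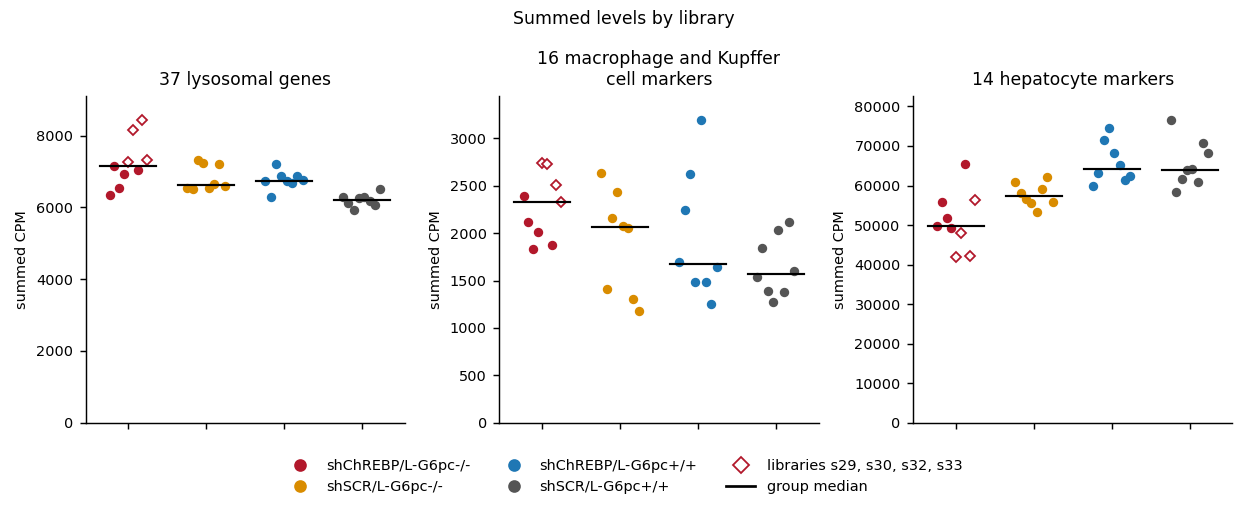
Summed CPM (y axis, from 0) of the 37 lysosomal genes (left), 16 macrophage and Kupffer cell markers (middle) and 14 hepatocyte markers (right), with 1 point per library and black lines at group medians. Groups run from shChREBP/L-G6pc-/- on the left to shSCR/L-G6pc+/+ on the right, and open diamonds mark s29, s30, s32 and s33. The lysosomal sum spans 6351 to 8437 CPM in shChREBP/L-G6pc-/- livers and 5931 to 6506 CPM in shSCR/L-G6pc+/+ livers.

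The plot of summed levels shows the lysosomal sum, which is dominated by the genes with the most reads, beside that of the marker lists. Its median was 7140 CPM in shChREBP/L-G6pc-/- livers, 6627 CPM in shSCR/L-G6pc-/- livers, 6743 CPM in shChREBP/L-G6pc+/+ livers and 6212 CPM in shSCR/L-G6pc+/+ livers. It was not tested, since the genes were chosen with results known.

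The wider lysosomal system was described from lists of other genes. Of 27 other lysosomal hydrolases tested, 0 were called with shChREBP in L-G6pc-/- livers by edgeR. There 2 of 27 had an unadjusted p under 0.05, against 2267 of 10179 genes in all. In shChREBP/L-G6pc-/- vs shSCR/L-G6pc+/+ livers 2 rose and 1 fell. edgeR called 0 of 27 without the 4 libraries in either comparison, with 1 and 3 at an unadjusted p under 0.05. Of 19 other membrane proteins, 1 rose and 0 fell with shChREBP in L-G6pc-/- livers. That gene was Cd63, a tetraspanin of late endosomes, at 0.82 (edgeR adjusted p = 0.0281) and 0.38 (edgeR adjusted p = 0.614) without the 4 libraries. Of 11 other proton pump subunits, 0 rose and 1 fell. That was Atp6v0e, a subunit of the membrane domain, which changed by -0.37 (edgeR adjusted p = 0.0403), and by -0.54 (edgeR adjusted p = 0.0201) without them.

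Of 16 genes that sort enzymes to lysosomes, 2 rose with shChREBP in L-G6pc-/- livers. Sort1, which encodes the sorting receptor sortilin, rose by 1.13 (SE 0.19, edgeR adjusted p = 0.00017), and by 1.16 (edgeR adjusted p = 0.00256) without the 4 libraries. Sort1 had fallen by 0.85 on the log2 scale with G6pc deficiency (edgeR adjusted p = 0.00907). Ap1b1, an adaptor subunit of clathrin coats, rose by 0.29 (edgeR adjusted p = 0.0428), and the estimate was 0.24 (edgeR adjusted p = 0.319) without them. Of 4 cathepsin inhibitors, Cstb (cystatin B) rose by 0.60 (edgeR adjusted p = 0.0227) and Serpina3n fell by 0.60 on the log2 scale (edgeR adjusted p = 0.0114). Their estimates without the 4 libraries were 0.12 and -0.43, and neither passed (edgeR adjusted p = 0.762 and 0.293).

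Of 28 autophagy genes tested, 0 rose and 1 fell with shChREBP in L-G6pc-/- livers. Stbd1, a glycogen-binding protein of glycogen autophagy, changed by -0.71 (edgeR adjusted p = 0.0319), and by -0.75 (edgeR adjusted p = 0.135) without the 4 libraries. Of 19 genes of the TFEB family and of lysosomal nutrient sensing, 1 rose and 0 fell there. That gene was Tfe3, at 0.55 (edgeR adjusted p = 0.00997) and 0.32 (edgeR adjusted p = 0.357) without them. With G6pc deficiency, 3 genes of this last list and 1 autophagy gene rose, and none of either list fell. In the fit without the 4 libraries, 3 and 2 rose.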

How the data were processed

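RNA of 33 mouse liver libraries was sequenced from the 3' end (QuantSeq) with 50-base reads. Per the labels and methods, the authors aligned reads with HISAT to GRCm38 (Ensembl 82), used SAMtools for sorting, and took reads per gene from HTSeq-count. The deposited raw counts were the values tested. The authors also deposited voom-normalized values, a linear signal equal to (count + 0.5) divided by 1 number per library, which served as an alternative after taking log2. Tool versions are not given in the sources used here.

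Genes with enough reads (filterByExpr, minimum count 10, minimum total 15) were scaled by TMM and tested with edgeR 4.0.16 (quasi-likelihood, two-sided, R 4.3.3), all 4 groups in 1 model, with Benjamini-Hochberg adjustment over 10179 genes and a threshold of 0.05. Each comparison used 8 or 9 libraries a group, without covariates, since library numbers are unique. CPM were computed with TMM-scaled library sizes. In figures and text, libraries are s1 to s33. Depth was 1497843 to 3546852 reads per library, which limits genes with few reads (Gla, Manba, Mcoln1, Ids, Glb1, Idua). The test was checked on simulated counts. DESeq2 1.42.0, limma 3.58.1, other scalings, no filter, only the groups compared, and left-out libraries were alternatives. Gene coordinates are those of GENCODE M21 (GRCm38). Promoter windows are RefSeq's.

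The members, the lists of other lysosomal genes and markers, and the libraries left out together were chosen with earlier results of these data known. Genes were named by rule: every member that passed a test, the member of each role with the largest change with shChREBP in L-G6pc-/- livers, up to 2 called genes of each other list in that comparison, and Mlxipl, Pklr and G6pc. Further genes named (Npc1, Mcoln1, Lamp1, Ctss, Ctso, Ctsf, Gaa, Ids, Idua, Manba, Neu1, Lipa, marker genes) were chosen after their values were seen.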

Additional observations from a re-analysis of the deposited data

Results flagged for a closer look

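7 of 148 sets of values (37 genes in 4 groups) had 1 library far from the rest by Dixon's ratio, and chance flags about 1 in 20. All 7 were high. Ctss reached 328 CPM in the shSCR/L-G6pc-/- library s20, where the next library had 199 CPM. Smpd1 reached 54.6 CPM in the shSCR/L-G6pc-/- library s21 (next 43.2 CPM). Manba reached 12.2 CPM in the shChREBP/L-G6pc-/- library s30 (next 4.96 CPM). Atp6ap1 reached 583 CPM in the shChREBP/L-G6pc+/+ library s9 (next 446 CPM) and 460.2 CPM in the shSCR/L-G6pc+/+ library s1 (next 375 CPM). Ctsa reached 369 CPM in the same shSCR/L-G6pc+/+ library s1 (next 286 CPM), and Tpp1 reached 82.2 CPM in the shSCR/L-G6pc+/+ library s8 (next 67.1 CPM). None of these 7 values belongs to a group of a comparison in which its gene was called.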

How the results depend on the processing

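Of 18 calls on 12 genes, 3 passed under all 8 alternatives (Ctsz in shChREBP/L-G6pc-/- vs shSCR/L-G6pc+/+, Gusb for G6pc deficiency and Lamp2 for shChREBP in L-G6pc+/+), and 12 passed in all 33 fits without 1 library. For G6pc deficiency, 1 gene passed with library size only and 1 without a filter on low counts, and leaving out 1 library gave 1 to 3. For shChREBP in L-G6pc+/+ livers, 1 passed without the filter and 2 without s9 and s13, and leaving out 1 library gave 2 to 4. For shChREBP in L-G6pc-/- livers, 0 passed without s29, s30, s32 and s33, and leaving out 1 library gave 3 to 5. For shChREBP/L-G6pc-/- vs shSCR/L-G6pc+/+, 1 passed without those 4, and leaving out 1 library gave 7 to 10. For the difference between genotypes DESeq2 called 1, and leaving out 1 library gave 0 to 0. The cause was not tested.

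Scaling by library size only moved the median of all genes by 0.11 for shChREBP in L-G6pc-/- livers, and the higher share of all calls was 75.8% instead of 44.0% there, 68.2% instead of 51.9% in shChREBP/L-G6pc-/- vs shSCR/L-G6pc+/+, and 57.6% instead of 68.1% for G6pc deficiency. The members' medians were then 0.17, 0.21 and 0.04. No call on a lysosomal gene changed direction under any alternative. No paired analysis was possible because the library numbers are unique across groups. Genes with few reads (2 to 42 for Gla, 2 to 33 for Manba) are the least precise.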
